A study of Homo sapiens with 6 samples.

Results

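The MYC locus was followed at 8q24 in HCT116 cells, an established colorectal cancer line. It comprised the genes MYC, PVT1, CCAT1, CASC11 and POU5F1B and every called region in hg19 chromosome 8 from 127.9 to 129.3 Mb, a span of 1.4 Mb that holds the DNA upstream of MYC and all of PVT1. The choice by position gave 55 regions out of 126184 in the 4 deposited lists. KDM3B ChIP-seq gave 22 of them in HCT116/Scrsh cells and 7 in HCT116/ABsh-1 cells, and H3K9me2 ChIP-seq gave 9 and 17. HCT116/Scrsh cells carried a scramble shRNA in a lentiviral vector, and HCT116/ABsh-1 cells carried 1 shRNA aimed at KDM3A and KDM3B together. Both were grown in DMEM with serum, their samples are labelled Con and KD, and the labels speak of siRNA where the methods speak of shRNA. Each antibody was used on 1 library per cell population, so the values below stand side by side without a test, and the depth of the libraries is unknown. A region absent from a list was not called there, which at unknown depth does not show that the protein or mark was absent. The lists do not show how far KDM3A and KDM3B were depleted. The paper reports efficient knockdown of both in HCT116 cells by western blot. In HCT116/Scrsh, 1 KDM3B region lay up to 5 kb from a KDM3A start, and the KDM3B gene had no region of any list at that distance.

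MYC encodes a basic helix-loop-helix transcription factor that drives growth and is a classic target of β-catenin and TCF in colorectal cells. It sits in a region with few other protein-coding genes. The DNA upstream of it is known for enhancers active in colorectal cancer and for long non-coding RNAs (lncRNAs) transcribed from them, CCAT1 and CCAT2 among them. PVT1, downstream, is a long lncRNA gene that is often gained together with MYC. KDM3A and KDM3B remove methyl groups from H3K9me2, a histone mark of repressed chromatin.

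Of the 5 genes, 4 had an entry of their own in GENCODE release 44. MYC lies at 128747680 to 128755197 on the plus strand, with the canonical transcription start site (TSS) at 128748477, and positions below are relative to it. PVT1 lies at 128806772 to 129199347 on the plus strand, CASC11 at 128698588 to 128751233 on the minus strand and POU5F1B, a retrocopy of the pluripotency gene POU5F1, at 128334428 to 128432311 on the plus strand. CCAT1 was not named there. RefSeq orders it directly after CASC19, and GENCODE carries a CASC19 model of 154848 bp at 128084939 to 128239786 on the minus strand, so CCAT1 was counted through that model. This assignment is inferred from the gene order. The largest cluster of annotated starts of the model, 26 sites of 37 transcripts, lies between 128231087 and 128231640, at -517.2 kb from MYC.

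KDM3B regions of HCT116/Scrsh were denser around MYC than in the genome. There the span held 15.7 KDM3B regions per Mb, against 5.49 on chromosome 8 and 6.17 in all assembled bases, which is 2.55 times the genome (95% Wilson interval 1.68 to 3.85, counting error only). In HCT116/ABsh-1 it held 5.00 per Mb against 2.81, or 1.78 times (0.861 to 3.66), so that interval included the genome's level. The density was not particular to the span: the 1.4 Mb next to it upstream, looked at after the data were seen, held 14.3 per Mb in HCT116/Scrsh, or 2.32 times the genome, which is inside the interval of the span, and the 1.4 Mb downstream held 5.00, or 0.81 times. The number in HCT116/ABsh-1 was 0.318 of that in HCT116/Scrsh around MYC and 0.456 in the genome, and the covered length went from 5100 to 1000 bp.

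H3K9me2 behaved differently. In HCT116/Scrsh the density was 6.43 regions per Mb against 4.07 in the genome, a ratio of 1.58 (0.830 to 3.0). In HCT116/ABsh-1 it was 12.1 against 31.1, which is 0.391 of the genome (0.244 to 0.626). Both neighbouring stretches of 1.4 Mb were lower still in HCT116/ABsh-1, at 0.23 of the genome upstream and 0.138 downstream, so the low density was shared with the DNA around the span. The list of H3K9me2 regions was 7.63 times longer in HCT116/ABsh-1 over the genome and 4.65 times longer on chromosome 8, but 1.89 times longer around MYC. Its covered length there went from 1000 to 2700 bp. The score, column 5 of each list, has no stated meaning and serves here to order the regions of 1 list. The highest score among the 17 regions was 90. With equal numbers of regions per condition, taken from the highest score down, the H3K9me2 list of HCT116/ABsh-1 ended at a score of 106, so the span held 9 regions in HCT116/Scrsh, with 0 in HCT116/ABsh-1. Among the 50% of each list with the highest scores the span likewise held 9 against 5. Equal numbers left 12 KDM3B regions in HCT116/Scrsh against 7. The plot of densities shows that the span stood above the genome for KDM3B and below it for H3K9me2 in HCT116/ABsh-1.

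The KDM3B calls of HCT116/Scrsh and the H3K9me2 calls of HCT116/ABsh-1 lay mostly on different sides of MYC. The span reaches from -848.5 to 551.5 kb of the MYC TSS, so more of its length is upstream. Of the 22 KDM3B regions in HCT116/Scrsh, 17 lay upstream of the MYC TSS, those at -2.0 and -1.2 kb included, and 5 downstream. Of the 17 H3K9me2 regions in HCT116/ABsh-1, 3 lay upstream and 14 downstream. The median position was -369.6 kb for the first and 289.1 kb for the second. The H3K9me2 regions of HCT116/Scrsh were spread thinly, with 7 upstream, 2 downstream and none in the 447 kb between 128720500 and 129167901, which contain MYC and most of PVT1.

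**Figure D1:**
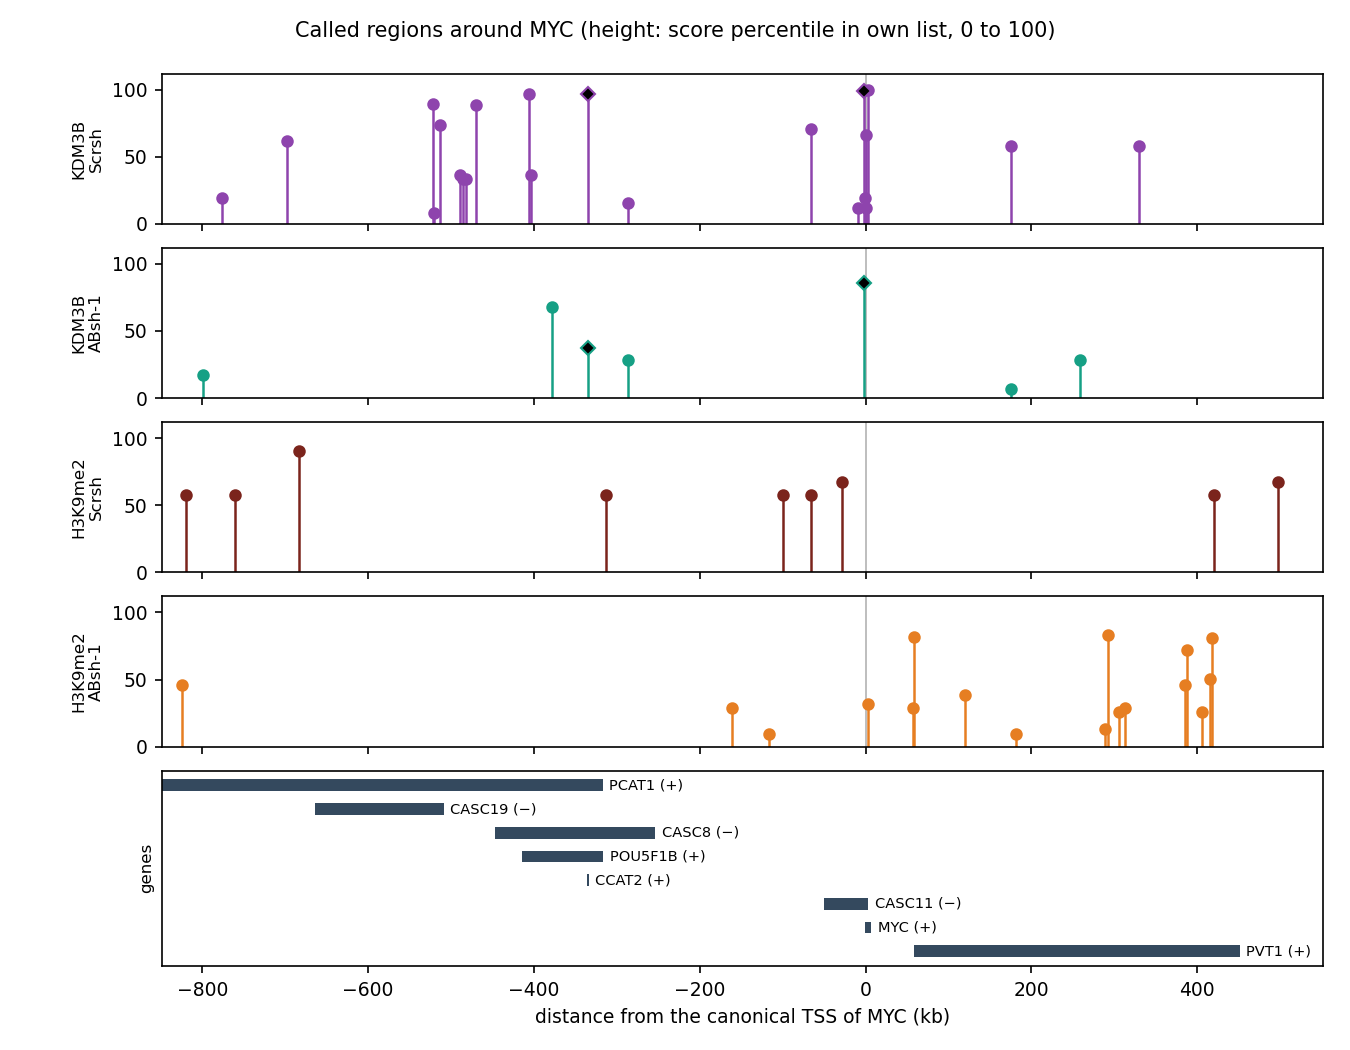
Positions of the 55 regions in kb from the MYC TSS (grey line), 1 panel per list, above the genes with their strands. The height is the percentile of the score within its own list, and black diamonds mark regions that overlap a region of the same antibody in the other cell population. KDM3B regions gather upstream of and at MYC, and H3K9me2 regions of HCT116/ABsh-1 along PVT1.

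By gene, the stretch from the upstream edge to CASC11 (799 kb) held 14 KDM3B regions in HCT116/Scrsh, with 4 in HCT116/ABsh-1, and 6 and 3 H3K9me2 regions. From the 3′ end of CASC11 to the first MYC start (49.1 kb) there were 3 and 1 KDM3B regions. The MYC gene itself held 3 and 0. Over the 393 kb of PVT1 the KDM3B number was 2 in both cell populations, whereas the H3K9me2 number was 1 in HCT116/Scrsh, with 11 in HCT116/ABsh-1, or 28.0 per Mb. By number of regions PVT1 was near the genome's 31.1 per Mb, but by covered length it held 4840 bp per Mb against 9660 in the genome. The stretch upstream of CASC11, at 3.76 regions per Mb, was below the genome by either measure. The GC content was 45.9% over PVT1 and 40.1% upstream of CASC11, so between these stretches it moved with the H3K9me2 numbers of HCT116/ABsh-1. KDM3B in HCT116/Scrsh went the other way, with 5.09 regions per Mb over PVT1 and 17.5 upstream of CASC11. The part of base composition in these differences was not tested.

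The calls at MYC itself lay in a tight row. Within 5 kb of an annotated MYC TSS, the study's limit for a bound gene, there were 5 KDM3B regions in HCT116/Scrsh, with 1 in HCT116/ABsh-1, and 0 and 1 H3K9me2 regions. Of 20163 protein-coding genes, 61 (0.303%) had at least as many KDM3B regions in HCT116/Scrsh by the same limit. This rank counts each call singly and was not repeated with neighbouring calls merged. Most of the 5 calls at MYC lay less than 1 kb from the next. The first, from 128746301 to 128746600 and centred at -2026 bp, had a score of 147, rank 213 of 17638. The second, of 100 bp at -1226 bp, had a score of 13 and stood at the 19.4th percentile of the list. The third, of 200 bp, covered the canonical TSS itself and the start of the 5′ UTR in exon 1, with a score of 36. The row therefore mixed strong and weak calls. A region of 100 bp at 974 bp in intron 1 scored 11.

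The last of the row was the outstanding call of the locus. It ran for 1300 bp from 128750201 to 128751500 and took in the end of intron 1, all 772 bp of exon 2 and the start of intron 2. Its score of 176 ranked 104 of 17638, and 10 regions of the list (0.0567%) were at least as wide. Exon 2 encodes the N-terminal transactivation part of the protein. In HCT116/ABsh-1 no KDM3B region remained over it, the nearest being 3801 bp away, and the only region of the row with a counterpart was the first: a region of 200 bp from 128746201 to 128746400, with a score of 46, at the 85.9th percentile of its own list.

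The H3K9me2 region of HCT116/ABsh-1 at MYC was 100 bp long, from 128751101 to 128751200, inside coding exon 2 and inside the wide KDM3B region of HCT116/Scrsh. That KDM3B region was the only one of the 22 to be overlapped by H3K9me2 of HCT116/ABsh-1, and over the genome 94 KDM3B regions (0.533%) were overlapped in this way. This share was not matched by width: the median width in that list was 100 bp, against 1300 bp for this KDM3B region. A minor CASC11 transcript also starts in exon 2 of MYC, and the H3K9me2 region lay in its first part, 83 bp from that start, so the call cannot be assigned to 1 of the genes. Its score of 18 stood at the 31.9th percentile. It consists of a single window, so it drops out when regions of at least 2 windows are asked for. The study's rule for peaks asked for neighbouring windows of the same significance. In HCT116/Scrsh the nearest H3K9me2 region was 30601 bp away. From ChIP-seq the paper reports KDM3B at MYC and a higher level of H3K9me2 there after depletion, with browser views. In the deposited lists, the H3K9me2 called within 5 kb of a MYC start was this single window. It is absent when the lists are cut to equal numbers. The lists hold called regions and no signal levels, so the level itself could not be compared.

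The positions of the study's ChIP-qPCR primers were found from identical sequence in hg19. The amplicon at the Wnt-regulated enhancer (WRE) of MYC lay from 128747050 to 128747144, or -1427 to -1333 bp, and fell in no region of any list. The weak KDM3B region at -1226 bp in HCT116/Scrsh was 57 bp from it. The amplicon named M1, from 128751086 to 128751184, lay inside the wide KDM3B region of HCT116/Scrsh and overlapped the H3K9me2 region of HCT116/ABsh-1. Among the amplicons placed, M1 thus stood where KDM3B was called in HCT116/Scrsh and H3K9me2 in HCT116/ABsh-1. The WRE amplicon stood where neither was called. By ChIP-qPCR the paper reports findings at MYC similar to those at AXIN2, where depletion raised H3K9me2, and it names the WRE among the sites. Of the third primer pair, also listed as M1, only 1 primer matched, and it was not placed.

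**Figure D2:**
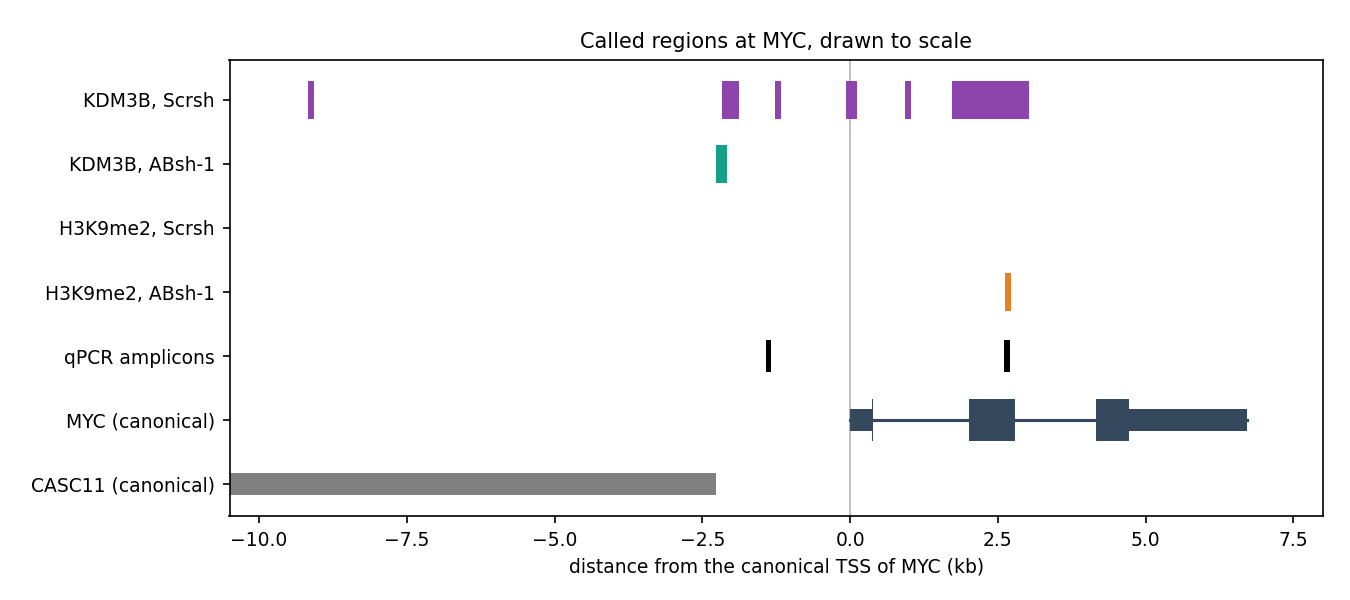
Regions of each list within 10 kb of the MYC TSS drawn to scale, with the placed qPCR amplicons (WRE left, M1 right), the canonical MYC transcript (thick parts coding) and the start of canonical CASC11. KDM3B in HCT116/Scrsh has 6 regions here, of which the one over exon 2 is 1300 bp wide. H3K9me2 in HCT116/Scrsh has none.

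CASC11, a lncRNA transcribed away from MYC, shares its start with the MYC upstream region. The canonical CASC11 TSS at 128746213 is at -2.3 kb from that of MYC, and all 5 KDM3B regions counted for MYC in HCT116/Scrsh were also counted for CASC11, as was the 1 of HCT116/ABsh-1 and the H3K9me2 region. These are not separate observations. The region centred at -2026 bp from MYC lay at -237 bp from the canonical CASC11 start in HCT116/Scrsh. Its counterpart in HCT116/ABsh-1 covered the CASC11 TSS. Farther inside CASC11 there was a further KDM3B region of HCT116/Scrsh, at 128739301 to 128739400 with a score of 11, and a H3K9me2 region of HCT116/Scrsh, at 128720401 to 128720500 with a score of 16. Neither overlapped a region of HCT116/ABsh-1.

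Far upstream, the KDM3B regions of HCT116/Scrsh formed a second group. Within 5 kb of a start of the CASC19 model, which stands for CCAT1, there were 3 KDM3B regions in HCT116/Scrsh, 0 in HCT116/ABsh-1 and no H3K9me2 region in either. The strongest ran from 128227301 to 128227500, in an intron, with a score of 74 (percentile 89.6), 3687 bp downstream of the nearest CASC19 start. A single window 301 bp further on scored 10. The third, from 128235101 to 128235300 with a score of 44, lay 711 bp downstream of another CASC19 start. The nearest KDM3B region of HCT116/ABsh-1 was 134601 bp or more from each of the 3.

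Between CASC19 and CASC8, 4 KDM3B regions of HCT116/Scrsh followed at -488.7, -485.1, -482.2 and -470.2 kb. The last was 500 bp wide with a score of 71, and the others were single windows with scores of 17 and 18. None had a counterpart in HCT116/ABsh-1. No H3K9me2 region of HCT116/ABsh-1 lay closer than 303501 bp to any of these 7 regions, and the H3K9me2 list of HCT116/ABsh-1 had a gap of 663 kb there, from 127923800 to 128587201.

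POU5F1B had no region of any list within 5 kb of its 3 starts. Its gene model overlaps CASC8 and PCAT1, both lncRNAs, and it held 3 KDM3B regions in HCT116/Scrsh, with 2 in HCT116/ABsh-1, all in introns. The strongest, from 128342501 to 128342800, had a score of 117, rank 508, and was missing from HCT116/ABsh-1, where the nearest region was 27101 bp away. A single window at -404.0 kb scored 18. The third lay in CCAT2, a short lncRNA gene of 1752 bp at 128412644 to 128414395 on the plus strand, 657 bp downstream of its start.

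This CCAT2 region was the other of the 2 KDM3B regions kept in HCT116/ABsh-1. In HCT116/Scrsh it ran for 400 bp from 128413101 to 128413500 with a score of 111, rank 596 of 17638. In HCT116/ABsh-1 only its first 100 bp were called, with a score of 14 at the 37.6th percentile. Both kept regions were thus narrower and lower in their list in HCT116/ABsh-1 than in HCT116/Scrsh, although ranks from lists of unequal length and unknown depth are not a measure of binding. Of all genes with a start in the span, CCAT2 had 1 KDM3B region within 5 kb in each cell population and no H3K9me2 region. PCAT1 had 4 and 1 KDM3B regions and 2 and 1 H3K9me2 regions over its 31 starts, of which 14 lie in the span. Regions outside the span could therefore count for PCAT1, and its H3K9me2 region of HCT116/ABsh-1 was one of these. CASC8 had 1 H3K9me2 region, in HCT116/Scrsh.

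PVT1 carried mainly H3K9me2 regions of HCT116/ABsh-1. Its 132 annotated starts give windows of 163693 bp in all, and within them there were 1 KDM3B region in HCT116/Scrsh, 2 in HCT116/ABsh-1, 0 H3K9me2 regions in HCT116/Scrsh, with 10 in HCT116/ABsh-1. Around the canonical start alone, at 128806787, there were no KDM3B regions and 2 H3K9me2 regions of HCT116/ABsh-1. The nearer, from 128806101 to 128806400 and centred at -536 bp from that start, had a score of 84 (percentile 81.5), and the other, of 100 bp at 128805501 to 128805600, had 17. The PVT1 promoter is known to compete with that of MYC for enhancers.

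Inside PVT1 the strongest H3K9me2 regions of HCT116/ABsh-1 were 300 bp from 129040201 to 129040500, with a score of 90, and 400 bp from 129165401 to 129165800, with a score of 83. A further pair of 200 bp, at 129133701 to 129133900 and 129135501 to 129135700, scored 27 and 60. Those with scores of 90 and 83 lay at the 83.2nd and 81.2nd percentile of their list. The others in the gene scored between 12 and 32, at or below the 50.7th percentile. Of the 11 regions, 10 were in introns and 1, from 129061701 to 129061800, lay in an exon of a PVT1 transcript that is not the canonical one, close to the miRNA gene MIR1207. MIR1208, near the 3′ end of PVT1, had 2 of these regions within 5 kb of its start.

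KDM3B was sparse at PVT1, and no region there was kept. The region of HCT116/Scrsh from 128923601 to 128923800 (score 29) and that of HCT116/ABsh-1 from 128924101 to 128924200 (score 8) were 301 bp apart, 175.2 and 175.7 kb from the MYC TSS. The region of HCT116/Scrsh at 129078001 to 129078200 scored 29 and that of HCT116/ABsh-1 at 129007401 to 129007500 scored 12. The snRNA pseudogene RNU1-106P had the latter within 5 kb of its start.

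Across the 5 genes, 4 lay within 5 kb of a KDM3B call in HCT116/Scrsh (MYC, CASC11, PVT1 and CCAT1 through CASC19) and 3 in HCT116/ABsh-1 (MYC, CASC11 and PVT1), where 18.3% and 9.87% of 64449 annotated genes did. H3K9me2 was called at 0 of them in HCT116/Scrsh and at 3 (MYC, CASC11 and PVT1) in HCT116/ABsh-1, where 7.09% and 31.6% of all genes had a region. Because MYC and CASC11 share regions and PVT1 and CASC19 have many starts, the counts per gene overstate how many places were bound: 9 distinct KDM3B regions of HCT116/Scrsh and 11 distinct H3K9me2 regions of HCT116/ABsh-1 gave these numbers. With the canonical TSS of each gene alone, MYC and CASC11 were the 2 genes left with KDM3B in HCT116/Scrsh. For CCAT1 this choice used the canonical start of CASC19, at -551.0 kb, away from the starts at -517.2 kb near which its 3 regions lay, so its loss here follows from the stand-in model.

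Of the 22 KDM3B regions of HCT116/Scrsh, 20 had no overlap with a KDM3B region of HCT116/ABsh-1 and are called lost. This is 90.9% (95% Wilson interval 72.2 to 97.5%), beside 74.3% of all KDM3B regions, a share inside the interval. Of the 7 KDM3B regions in HCT116/ABsh-1, 5 were new (71.4%, interval 35.9 to 91.8%), beside 43.6% in the whole list. When a region within 500 bp also counted, 18 would be lost and 3 new, since the pairs at 128461701 and 128462101, in a CASC8 intron, and at PVT1 lay 301 bp apart. Among regions at or above the 90th percentile of score, 73.8% of 1760 were kept over the genome, and in the span 2 of 4 were. The 2 lost ones were the region over MYC exon 2 and that at -405.8 kb.

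For H3K9me2, all 9 regions of HCT116/Scrsh were lost, beside 64.6% of the whole list, and all 17 of HCT116/ABsh-1 were new, beside 95.5%. The Wilson intervals were 70.1 to 100% and 81.6 to 100%. The span therefore held no H3K9me2 region that both cell populations shared. Of the 9 regions in HCT116/Scrsh, 8 were single windows with scores of 14 or 16. The exception, 200 bp from 128064801 to 128065000 in a PCAT1 intron, scored 34, at the 90.6th percentile. The closest approach in HCT116/Scrsh was at the start of the lncRNA ENSG00000286010, at -65.3 kb, where a KDM3B region (128683101 to 128683300, score 41) lay 201 bp from an H3K9me2 region (128682801 to 128682900, score 14). Both were missing from HCT116/ABsh-1.

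From the 22 KDM3B regions of HCT116/Scrsh to the nearest H3K9me2 region of HCT116/ABsh-1, the median distance was 126 kb, ranging from 0 to 327 kb. Over all KDM3B regions of that list it was 13.6 kb. Of the 22, 6 (5 of them within 5 kb) had such a region within 10 kb, whereas 44.7% of the whole list did. Those within 5 kb were the row at MYC, and all were measured to the same H3K9me2 region, the single window in exon 2. The sixth was the region at 128923601 in PVT1.

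The H3K9me2 regions of HCT116/ABsh-1 in the span were GC-rich, with a mean of 58.0% (range 43.0 to 68.0%) against 61.4% in their whole list and 42.0% over the span. At least 50% GC was found in 14 of the 17. KDM3B regions of HCT116/Scrsh had a mean of 48.7% (26 to 62.8%), below the 53.6% of their list, and H3K9me2 regions of HCT116/Scrsh had 42.3%. The wide KDM3B region over MYC exon 2 had 62.8%. The part of GC content in where regions were called was not tested.

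The core of the TCF and LEF motif, CTTTGAT, was searched for on both strands, since β-catenin reaches DNA through these factors. It occurred in 4 of the 22 KDM3B regions of HCT116/Scrsh. Weighted by the widths of these regions, the share in the whole list was 2.65%. The 4 were the 100-bp region at -1226 bp from MYC, beside the WRE amplicon, the 500-bp region at -470.2 kb, the 300-bp region at -405.8 kb and the 400-bp region in CCAT2. Of all regions of these widths in the list, 1.53%, 7.24%, 5.09% and 5.43% held it. These shares were not matched by GC content, which had a mean of 48.7% in the 22 regions and 53.6% in the list. The motif is itself rich in A and T, and the part of base composition was not tested. In HCT116/ABsh-1, 1 of 7 KDM3B regions held it, that at 129007401 in PVT1, beside 1.65% by width, and no H3K9me2 region of the span did. The kept 100 bp of the CCAT2 region did not include the motif. A match of letters is a description and was not shown to be a binding site.

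The MYC protein works with partners and rivals that share its dimerization domain. Of 12 such genes, 9 lay within 5 kb of a KDM3B call in HCT116/Scrsh, with 5 in HCT116/ABsh-1, where 35% and 19.2% of protein-coding genes did. MAX, the obligate partner of MYC, had 1 KDM3B region in HCT116/Scrsh and none in any other list. MYCL, a paralogue of MYC, had 1 KDM3B region in each cell population, and MYCN, the other, had none. Of the MAX-binding repressors, MNT had 3 KDM3B regions in HCT116/Scrsh, with 0 in HCT116/ABsh-1, MXD3 had 2 and 0, MXD1 had 1 and 0, and MXI1 had 3 in each. MGA had 0 and 1 and MXD4 none. Of the glucose-sensing branch, MLX had 1 and 0, and MLXIP and MLXIPL had 1 in each.

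H3K9me2 was called near 2 of these 12 genes in HCT116/Scrsh (MXI1 and MGA) and near 11 in HCT116/ABsh-1, all but MAX, beside 10.2% and 49.2% of protein-coding genes. MLXIPL had 7 regions in HCT116/ABsh-1, MXD4 6, MNT 5, MXD3 and MLXIP 4 each, MXD1 3 and MGA 2, and the others 1. MYC, with 1 region, was thus at the low end of its network for H3K9me2 and at the high end for KDM3B in HCT116/Scrsh, where no gene of the 12 reached its 5 regions. These counts were made without merging, and most of the 5 KDM3B regions at MYC lay less than 1 kb from the next. Genes with more starts have longer windows, and MXI1 has 37 starts where MYC has 14.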

How the data were processed

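The data are 1 ChIP-seq library per antibody (KDM3B, H3K9me2) and cell population. The 2 input libraries entered only through the authors' calling. Reads were mapped by the authors to hg19 with Bowtie, kept at unique positions and compared with input in 100-bp windows by a Poisson p-value. The deposited lists hold 1-based region positions and a score of unstated meaning, used here only for ranks. Depth is not given in the sources used here.

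Regions of the 4 lists that touched the span were annotated with GENCODE release 44 (hg19 version) and the GRCh37 sequence. A region was kept if it overlapped a region of the same antibody in the other cell population by at least 1 bp, and otherwise lost or new. A gene was counted where a region overlapped the 5 kb on either side of any annotated TSS. The text names the 5 members, other named genes of the span with a region within 5 kb of a TSS, 12 MYC network genes, KDM3A and KDM3B. ENSG00000286010 was named after its values were seen. The members and lists were chosen with earlier results of these data known. No test between libraries was made. Functions were tested on simulated lists. Python 3.11.15, numpy 2.4.6, pandas 2.3.3 and scipy 1.17.1 were used. Alternatives were stricter or equal lists, merged regions, another span, other overlaps and other TSS windows.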

Additional observations from a re-analysis of the deposited data

How the results depend on the processing

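Of 69 alternative values for 17 results, 45 stayed within the limits set for a change (1.5 times for a count, the counting interval for a density) and 24 moved. Without regions of a single window, the span held 11 and 2 KDM3B regions (HCT116/Scrsh, then HCT116/ABsh-1) and 1 and 6 H3K9me2 regions, with 10 KDM3B regions lost, 1 kept and 1 new, 1 H3K9me2 region lost and 6 new, and 1 member gene with H3K9me2 in HCT116/ABsh-1. With equal numbers per antibody there were 12 KDM3B regions in HCT116/Scrsh, 10 of them lost. H3K9me2 regions in HCT116/ABsh-1 were then 0, so 0 new and 0 member genes with one, which turns the direction of the H3K9me2 comparison. Equal numbers take away the difference in list length, so this compares ranks and does not measure a change of H3K9me2 in the span. The 50% of each list with the highest scores left 12 and 2 KDM3B regions and 9 and 5 H3K9me2 regions, which also turns the H3K9me2 direction. With the span cut by 200 kb at each end there were 4 and 11 H3K9me2 regions. Counting neighbours within 500 bp as kept gave 4 kept and 3 new KDM3B regions. The canonical TSS alone left 2 member genes with KDM3B in HCT116/Scrsh, CCAT1 being lost through the canonical start of its stand-in CASC19. By covered bases the H3K9me2 density in HCT116/ABsh-1 was 0.200 of the genome. Merging within 1 kb, an overlap of 50% of the shorter region and 2-kb windows moved none of the results they were run on past these limits. Merging was not run on the counts per gene or on the rank of MYC by number of KDM3B regions. The lists carry no read numbers, so depth limits every absence.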

Other observations

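The stretches of 1.4 Mb on either side of the span were chosen after the data were seen. Upstream, where KDM3B was close to the span in number, from 126500000 to 127899999, there were 20 KDM3B regions in HCT116/Scrsh, with 8 in HCT116/ABsh-1, and 14 and 10 H3K9me2 regions. Downstream, from 129300001 to 130700000, there were 7 and 5 KDM3B regions. The H3K9me2 number there went from 35 in HCT116/Scrsh to 6 in HCT116/ABsh-1, a ratio of 0.171, opposite in direction to the genome's 7.63. The 35 regions amounted to 25.0 per Mb, or 6.14 times the genome's density, and 28 of them were single windows. The GC content of this stretch was 38.7%, against 42.0% in the span. These are single libraries, and the difference was not tested.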
